A study of Homo sapiens with 4 samples.

Results

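The 10 genes examined here are targets of WNT signalling, most of which also feed back on it, in colorectal cancer cells grown attached or as spheroids. They were AXIN2, LGR5, ASCL2, RNF43, ZNRF3, NKD1, LEF1, TCF7, SP5 and MYC, chosen by name, and all 10 were found among the 58735 genes of the deposited table. The 4 RNA-seq libraries came from HCT116 and LOVO cells, each with 1 adherent and 1 spheroid library, and both lines are labelled wild type. The adherent cells carry the treatment label NO and grew in medium with serum. The spheroids carry the label 1mg/ml, which names no agent, whereas the text of the study names oxaliplatin, a platinum chemotherapeutic, at 1 μg/ml for its spheroids. Its methods describe ultralow attachment dishes and serum-free medium with B27, N2, bFGF and EGF, so growth form, medium and drug cannot be told apart in any difference between spheroids and adherent cells. With 1 library a condition, no value below has a replicate error. The intervals given are 95% exact counting intervals, which cover the error of counting reads only.

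In canonical WNT signalling, a WNT protein binds a Frizzled receptor and an LRP co-receptor, which stops the destruction complex built on APC and axin from degrading beta-catenin. Beta-catenin then enters the nucleus and activates genes bound by TCF and LEF factors. Many of the targets feed back on the pathway itself, and some of them mark stem cells in the crypt of the intestine. As background, HCT116 carries a stabilising mutation of beta-catenin and a truncating mutation of RNF43, and LoVo carries truncated APC, so in both lines the pathway is known to run downstream of its receptors.

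The promoter sequences are shown first, because binding of TCF and LEF factors is what makes a gene a direct target. RefSeq windows on GRCh38.p14 were found for 4 of the 10 genes, SP5, LEF1, TCF7 and RNF43, with 6 windows in all. The 250 bases before each start were searched on both strands for the TCF/LEF core in 4 spellings, namely CTTTGAA or CTTTGAT and also CTTTGTA or CTTTGTT, which share their first 5 bases. SP5 held 3 matches, the second of the windows of TCF7 held 1, and the LEF1 window, the other TCF7 window and both RNF43 windows held 0. Of all 35116 promoter windows, 12.0% held at least 1 match and 0.122% held 3 or more. Both windows with a match are printed 5′ to 3′ on the strand of the gene, with the matches on either strand in capitals.
SP5 promoter, chr2:170715087-170715336, plus strand: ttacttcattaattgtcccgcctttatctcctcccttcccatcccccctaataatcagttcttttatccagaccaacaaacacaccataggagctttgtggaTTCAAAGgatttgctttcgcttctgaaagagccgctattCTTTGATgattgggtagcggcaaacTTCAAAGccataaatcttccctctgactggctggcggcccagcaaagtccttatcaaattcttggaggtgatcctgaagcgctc
TCF7 promoter, chr5:134123368-134123617, plus strand: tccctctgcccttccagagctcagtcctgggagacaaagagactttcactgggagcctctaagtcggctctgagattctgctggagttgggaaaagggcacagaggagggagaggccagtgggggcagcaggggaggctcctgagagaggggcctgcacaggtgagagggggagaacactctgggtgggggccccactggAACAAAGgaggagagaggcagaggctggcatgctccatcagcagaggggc
In SP5 the matches began at positions -148, -109 and -84 and in TCF7 at -50, counted back from the start, and none overlapped another. A match describes these letters and does not show that a factor was bound.

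The libraries held 15483569 to 20429147 reads on genes. FPKM, the unit of the table, scales the reads of a gene by its length and by the size of the library, so levels of different genes can be set side by side. Before the genes were compared, the libraries were checked against 8 markers of colon epithelium. Their summed level was 1722 FPKM in the adherent and 1249 in the spheroid library of HCT116, against 327 and 187 in the libraries labelled LOVO, where all but LGALS4 of the 7 markers with more than 3 reads were lower in adherent cells. CDX2, the caudal transcription factor of intestinal cells, had 323 and 216 reads in HCT116 and 0 in both LOVO libraries. VIL1 and CDX1 also had 0 reads in both LOVO libraries. HCT116 had few of them as well, 6 and 11 for VIL1 and 1 and 0 for CDX1. EPCAM, the epithelial adhesion molecule, had 4397 and 3356 reads in HCT116 and 42 and 76 in LOVO. The keratin genes KRT8, KRT18 and KRT19 were at 571, 253 and 808 FPKM in adherent HCT116 cells and at 189, 122 and 14.9 in adherent LOVO cells. Among 9 markers of blood, vessel and stromal cells, summed levels were 5.85 and 16.4 FPKM in HCT116 and 22.0 and 23.8 in LOVO, with DCN, a matrix proteoglycan, at 0 reads in both HCT116 libraries and at 10.4 and 9.97 FPKM in LOVO. PDGFRB was at 0.0825 and 0.175 FPKM in HCT116 and 1.57 and 1.17 in LOVO, COL1A1 at 5.51 and 15.5 in HCT116 and 9.89 and 6.10 in LOVO. PECAM1, an endothelial adhesion molecule, had 992 reads in LOVO spheroids and at most 51 in the other libraries. VWF, another endothelial gene, was instead higher in HCT116, with 36 and 58 reads against 7 and 14 in LOVO. COL1A2 had at most 1 read in any library. Of the leukocyte markers PTPRC, CD3E and CD68, none had more than 6 reads in any library. The name LOVO is used below as the labels give it. Which cells these libraries hold, and the part that has in the results, was not tested.

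**Figure D1:**
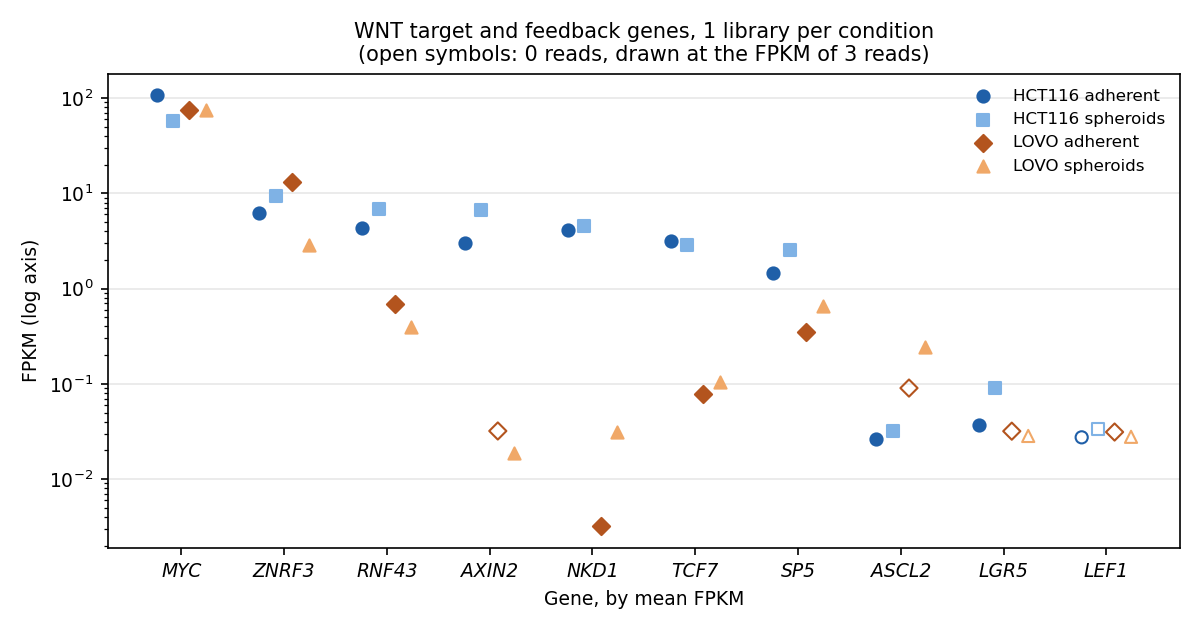
FPKM of the 10 WNT target and feedback genes (log axis) in each of the 4 libraries, with genes ordered by mean level and open symbols for 0 reads, drawn at the FPKM that 3 reads would give. MYC stood highest in all 4 libraries, and AXIN2, NKD1 and TCF7 were separated by line far more than by growth form.

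The intracellular feedback inhibitors AXIN2 and NKD1 were detected in HCT116 and nearly absent from LOVO. AXIN2, a scaffold of the destruction complex and one of the most general targets of the pathway, maps to chromosome 17 (GRCh38, minus strand) between 65528563 and 65561647. HCT116 showed 3.02 FPKM (322 reads) when adherent and 6.63 FPKM (582 reads) as spheroids. In LOVO, 0 reads were counted in adherent cells and 2 in spheroids, and 0 reads allow a level of up to 0.0320 FPKM there. Both LOVO values were below both HCT116 values. AXIN2 was 2.19-fold higher in HCT116 spheroids than in adherent HCT116 cells, with an interval from 1.91 to 2.52. Between the adherent libraries, LOVO was at least 94.4-fold lower, counted against 3 reads, and between the spheroid libraries it was 348-fold lower, with an interval from 96.0 to 2884. Of its 5226 exonic bases, 1316 also belong to AC004805.1 on the same strand, which had at most 5 reads in any library.

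NKD1 codes for a protein that binds Dishevelled and dampens the signal, and it lies on chromosome 16 from 50548330 to 50649249. Its level was 4.16 FPKM in adherent HCT116 cells and 4.58 in the spheroids, against 0.00320 and 0.0314 in LOVO, which rested on 1 and 11 reads. Its difference between the HCT116 libraries was small, 1.10-fold with an interval from 1.02 to 1.19. In LOVO the spheroids were 9.80-fold higher, but the interval ran from 1.42 to 422. Between the lines, NKD1 was 1299-fold lower in adherent LOVO cells (interval 233 to 51327) and 146-fold lower in LOVO spheroids (81.4 to 293).

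RNF43 and ZNRF3, a pair of related membrane ubiquitin ligases that remove Frizzled receptors from the cell surface, differed between spheroids and adherent cells in opposite directions in the lines. RNF43, on chromosome 17 from 58352500 to 58417595, was at 4.37 FPKM in adherent HCT116 cells and 6.84 in the spheroids, and at 0.691 and 0.391 in LOVO. The spheroids were 1.57-fold higher in HCT116 (interval 1.41 to 1.73) and 1.77-fold lower in LOVO (1.26 to 2.49), where the values came from 93 and 59 reads. RNF43 was lower in LOVO in both growth forms, 6.32-fold in adherent cells (5.08 to 7.94) and 17.5-fold in spheroids (13.4 to 23.2). Its level is uncertain, since 73.9% of its 7505 exonic bases are shared with other annotated genes, 4469 of them on the same strand with AC004687.2 and SUPT4H1. SUPT4H1 itself, a subunit of a general elongation factor, was listed with at most 3 reads in any library. On the opposite strand 1521 bases are shared with TSPOAP1-AS1, which had 20 and 58 reads in HCT116 and 3 and 10 in LOVO. How reads of shared bases were counted was not tested.

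ZNRF3 shares no exonic base with another gene. It lies on chromosome 22 from 28883592 to 29057487, and its highest level was in adherent LOVO cells. There it reached 13.1 FPKM, while the spheroids of that line had 2.88, and HCT116 stood between them, at 6.17 when adherent and 9.30 as spheroids. The LOVO spheroids were 4.54-fold below the adherent library (interval 4.07 to 5.08), and HCT116 spheroids were 1.51-fold higher than adherent HCT116 cells (1.38 to 1.65). The order of the lines therefore differed with growth form, with LOVO 2.12-fold higher in adherent cells (1.95 to 2.31) and 3.23-fold lower in spheroids (2.88 to 3.63). The difference between the lines in their spheroid ratio was not tested.

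**Figure D2:**
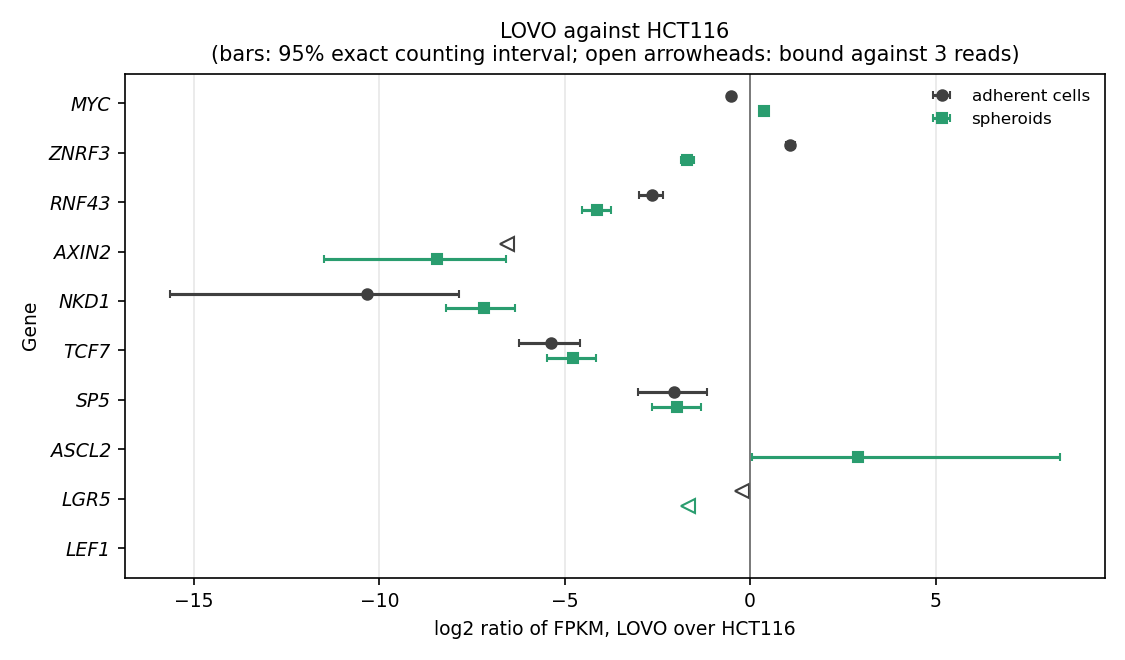
log2 ratio of FPKM of LOVO over HCT116 for each of the 10 genes, for adherent cells and for spheroids, with 95% exact counting intervals as bars and open arrowheads for bounds against a library with 0 reads. AXIN2, NKD1, TCF7, RNF43 and SP5 lie left of 0 in both growth forms, ZNRF3 and MYC lie on either side of 0, and LEF1 has no value.

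LGR5, the R-spondin receptor that marks crypt stem cells and protects Frizzled from RNF43 and ZNRF3, was barely detected. It lies on chromosome 12 from 71439770 to 71586310. HCT116 had 4 reads when adherent and 8 as spheroids, both LOVO libraries had 0, and the highest level was 0.0907 FPKM. The ratio of the HCT116 libraries had an interval from -0.62 to 3.46 on the log2 scale, and a difference was not detectable at this depth. ASCL2, the basic helix-loop-helix factor of crypt stem cells on chromosome 11 from 2268495 to 2270952, had 1 read in each HCT116 library. LOVO had 0 reads when adherent and 9 as spheroids. At 0.242 FPKM the spheroids were 2.67-fold higher when the 0 reads were set to 3. That value leaves out the counting error of the 9 reads, so it is not an interval limit.

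Of the nuclear partners of beta-catenin in the list, TCF7 was lower in LOVO than in HCT116 and LEF1 was not detected. TCF7, on chromosome 5 from 134114711 to 134151865, was at 3.18 FPKM in adherent HCT116 cells and 2.86 in the spheroids, and at 0.0776 and 0.104 in LOVO. Both LOVO values were below both HCT116 values, 41.0-fold in adherent cells (interval 24.3 to 75.5) and 27.5-fold in spheroids (17.8 to 44.9). Within each line the spheroid to adherent log2 ratio had an interval that included 0. It was bounded by -0.33 and 0.016 for HCT116, and by -0.63 and 1.51 for LOVO. LEF1, on chromosome 4 from 108047545 to 108168956, had 0 reads in all 4 libraries, which allows up to 0.0275 to 0.0333 FPKM. Its antisense gene LEF1-AS1 also had 0 reads in each library.

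SP5 was higher in the spheroid library of both lines, in LOVO within counting error. It codes for a zinc finger repressor that competes at promoters of WNT targets, lies on chromosome 2 from 170715351 to 170718078 and shares no exonic base with another gene. HCT116 had 1.45 FPKM when adherent and 2.54 as spheroids, and LOVO had 0.352 and 0.651. The spheroids were 1.75-fold higher in HCT116 (interval 1.25 to 2.47) and 1.85-fold higher in LOVO (0.923 to 3.91), where 13 and 27 reads left the ratio within counting error. LOVO was lower than HCT116 in both growth forms, 4.13-fold in adherent cells (2.24 to 8.19) and 3.90-fold in spheroids (2.51 to 6.25). Its promoter is the one printed above with 3 matches to the TCF/LEF core.

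MYC, the growth-promoting transcription factor, was the most abundant of the 10 genes in each library. HCT116 had 107 FPKM when adherent and 57.2 as spheroids, and LOVO had 75.0 and 74.6. In adherent HCT116 cells 284 genes of the table stood higher. HCT116 spheroids were 1.87-fold lower than adherent cells (interval 1.79 to 1.96), the opposite of AXIN2, RNF43, ZNRF3 and SP5 in the same libraries. The LOVO libraries differed by 1.01-fold, with an interval of the log2 ratio from -0.069 to 0.054. Between the lines MYC was 1.43-fold lower in adherent LOVO cells and 1.30-fold higher in LOVO spheroids.

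**Figure D3:**
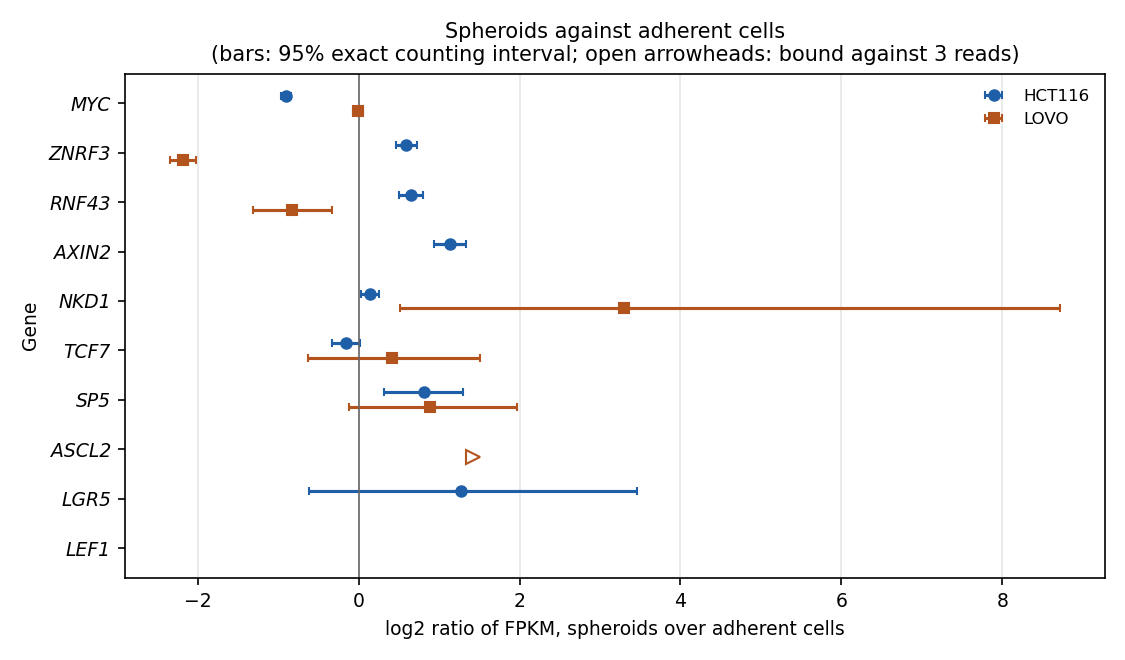
log2 ratio of FPKM of spheroids over adherent cells for each of the 10 genes, in HCT116 and in LOVO, with 95% exact counting intervals as bars and an open arrowhead for a bound against 0 reads. In HCT116 the intervals of AXIN2, RNF43, ZNRF3, SP5 and NKD1 lie above 0 and that of MYC lies below, whereas in LOVO those of ZNRF3 and RNF43 lie below 0 and that of NKD1, from 11 reads against 1, and the bound of ASCL2 lie above.

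Of the 10 genes, 2 to 3 passed a difference of -2 between the lines and 0 within them, and these counts depended on the pseudocount. Differences were computed on the log2(FPKM + 1) scale, which understates those of genes with low values, and a gene was counted when it passed 2, the Log FC that the methods of the study give, which is 4-fold on the log2 scale. The background is 14429 genes with a mean of at least 1 FPKM, which 7 of the 10 genes reached and ASCL2, LGR5 and LEF1 did not. AXIN2, NKD1, TCF7, RNF43 and SP5 reached it through HCT116 alone, since all their LOVO values were under 1 FPKM. In HCT116 spheroids 0 of the 10 genes were above 2 and 0 below -2, against 0.201% and 0.506% of all genes. None passed 1 either, which 2.19% of all genes did upwards and 3.33% downwards, with AXIN2 nearest at 0.92 and MYC at -0.89. In LOVO spheroids 0 genes were above 2 and 0 below -2, against 1.81% and 0.943%. At a threshold of 1, which 8.57% of all genes passed upwards and 7.85% downwards, ZNRF3 was the only one of the 10, at -1.86. Without a pseudocount its ratio was past 4-fold, and with a pseudocount of 0.1 or 0.01 in place of 1 the count below -2 was 1.

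Between the lines, 2 of the 10 genes were below -2 in adherent LOVO cells against adherent HCT116 cells, NKD1 at -2.36 and AXIN2 at -2.01, just past the threshold, and 0 were above 2. The shares of all genes were 5.59% and 5.26%. TCF7, at -1.96, lay just inside. In the spheroids 3 of the 10 were below -2, AXIN2 at -2.90, RNF43 at -2.49 and NKD1 at -2.44, against 4.71% of all genes, and 0 were above 2, against 5.68%. With a pseudocount of 0.1 the counts below -2 were 4 in adherent cells and 4 in spheroids, with 0.01 they were 6 and 5, with 1 above 2 in spheroids, and with TPM they were 4 and 4. The median over the 10 genes was -0.68 in adherent cells and -1.25 in spheroids, with medians over all genes of 0.075 and 0.039. For spheroids against adherent cells, HCT116 gave a median of 0.094 over the 10 and -0.033 over all genes, and LOVO gave 0.014 and -0.055. The 4 comparisons share libraries in pairs, so their values are not independent of each other.

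A limma fit over the 4 libraries, in which the lines stood in for replicates with cell line as a covariate and 1 residual degree of freedom was left, called 0 of 14429 genes between spheroids and adherent cells at an adjusted p under 0.05, or 0%. At an unadjusted p under 0.05 it held 1545 genes, 0 of them among the 10. The log2 difference of AXIN2 was 0.48 with a standard error of 0.35 (limma adjusted p = 0.575), that of MYC was -0.45 with a standard error of 0.33 (adjusted p = 0.573), and that of ZNRF3 was -0.67 with a standard error of 0.60 (adjusted p = 0.645). For LOVO against HCT116, with the growth forms standing in for replicates, the same fit called 24.7% of all genes. NKD1, AXIN2, TCF7 and RNF43 had limma adjusted p from 0.0104 to 0.0178 and SP5 had 0.0706, but these 5 genes entered the fit only through their level in HCT116, so they had to differ between the lines. With no filter on low values limma called 0 of 58735 genes, and the first 4 had adjusted p from 0.284 to 0.351. The LOVO values of AXIN2, NKD1 and TCF7 rest on 0 to 21 reads. On simulated reads the fit also called unchanged genes between growth forms. Both lines had the same means there, so the line effect was not tested by simulation. No call is taken from the limma fit for the 10 genes. The growth forms are not replicates of a line. Growth form was in the model too, so these p-values rest on how far the line difference disagreed between the forms. That is the 1 residual degree of freedom, moderated by the spread over all genes.

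The upstream and core parts of the pathway were read from lists written by role. Of all genes, 2.19% were above 1 and 3.33% below -1 in HCT116 spheroids, and 8.57% and 7.85% in LOVO spheroids. Counts at 1 within a line, here and below, are to be read beside these shares. The shares are over genes with a mean of at least 1 FPKM, whereas the lists also hold genes with at most 3 reads, which could not pass. The denominators are thus unlike. CTNNB1, which codes for beta-catenin, was at 33.4 and 28.2 FPKM in adherent cells and spheroids of HCT116 and at 24.8 and 14.4 in LOVO. APC, the tumour suppressor of the destruction complex, was at 4.17 and 5.11 FPKM in HCT116 and at 3.88 and 5.93 in LOVO. AXIN1, the constitutive relative of AXIN2, was at 5.31 and 4.60 FPKM in HCT116 and at 10.8 and 7.63 in LOVO. AXIN1 was thus detected in all 4 libraries. Of the 14 genes of Dishevelled and the destruction complex, 0 passed 1 in either direction within either line, and DVL1 had the highest mean level, at 56.1 and 55.4 FPKM in HCT116 and 32.2 and 37.2 in LOVO. The kinase gene CSNK1A1 was lower in the spheroids of both lines, by 0.58 in HCT116 and 0.57 in LOVO on the log2(FPKM + 1) scale, while the difference of the ubiquitin ligase gene FBXW11 was 0.049 and 0.10.

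Of the 12 genes of beta-catenin and its nuclear partners, 0 passed 1 within either line as well. Between the lines, 2 were below -2 and 1 was above 2 in adherent cells, and 1 and 0 in spheroids, where the shares of all genes were those given above, 5.59% and 5.26% in adherent cells and 4.71% and 5.68% in spheroids. These genes are named after their values were seen, because the counts are small. TCF7L2, the TCF factor most abundant here, was at 20.5 and 20.3 FPKM in HCT116 and at 3.16 and 1.82 in LOVO. TCF7L1 was at 5.77 and 6.46 in HCT116 and at 0.581 and 0.878 in LOVO, so it reached a mean of 1 FPKM through HCT116 alone. With TCF7 and LEF1, each detected member of the TCF/LEF family was thus lower in both LOVO libraries. TLE4, a Groucho corepressor, had 0 and 2 reads in HCT116 and 694 and 336 in LOVO. The co-activator genes PYGO2 and BCL9L had differences between spheroids and adherent cells of 0.0082 and -0.63 in HCT116 and of -0.057 and 0.28 in LOVO.

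**Figure D4:**
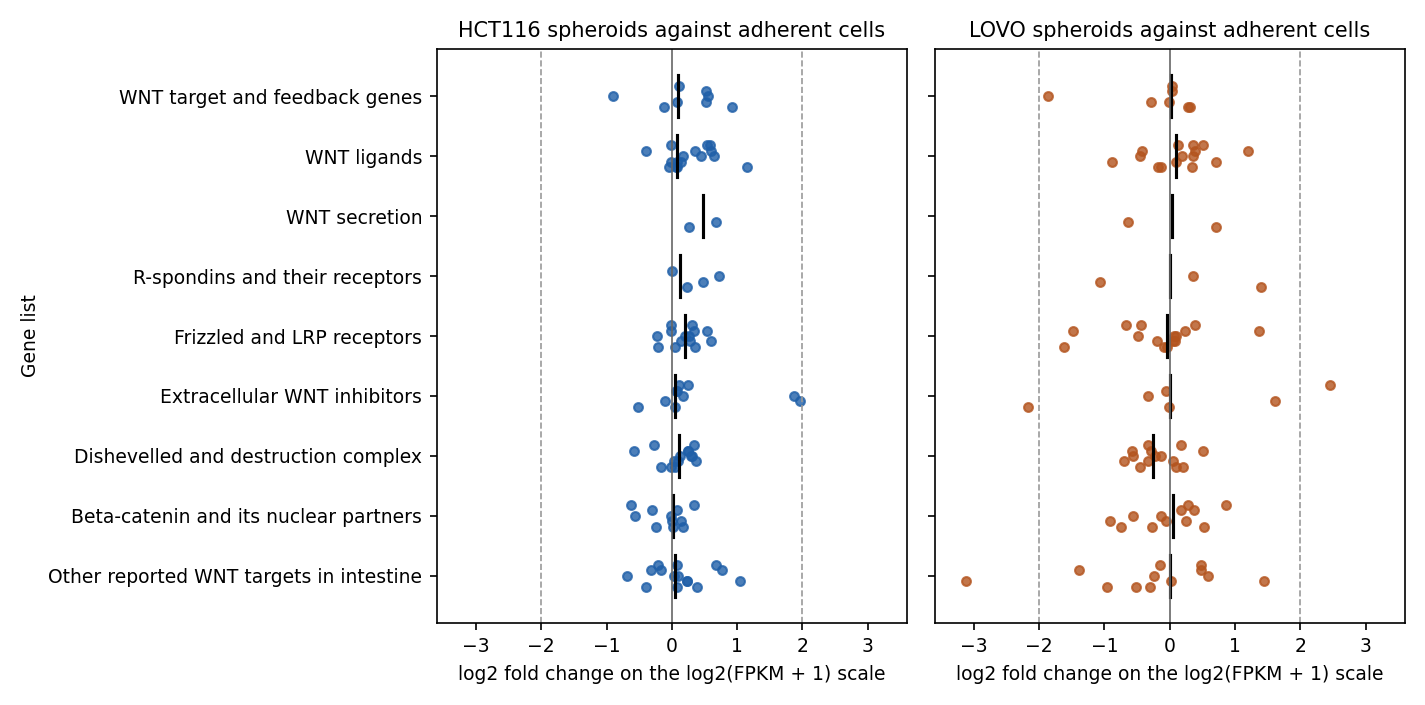
log2 fold change of spheroids over adherent cells on the log2(FPKM + 1) scale, for the genes of each WNT list in HCT116 (left) and LOVO (right). Points are genes with more than 3 reads in at least 1 of the libraries compared, black ticks are medians over the whole list and dashed lines mark 2 and -2. Most genes lie within 1 of 0 in both lines, and points past 2 appear in LOVO only, for KREMEN2, DKK1 and NKD2. Of all genes, 1.81% were above 2 and 0.943% below -2 in LOVO, and 0.201% and 0.506% in HCT116.

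The most abundant ligand gene was not the same in the lines. Of the 19 WNT genes, WNT16 led in HCT116, at 48.7 and 51.2 FPKM against 0.0855 and 0.183 in LOVO, whereas WNT5A, a ligand best known for signalling without beta-catenin, led in LOVO, at 26.4 and 38.2 FPKM against 0 and 5 reads in HCT116. WNT7B was found in both lines, at 7.11 and 11.2 FPKM in HCT116 and 16.0 and 11.7 in LOVO. Of the 19, 1 was above 1 in the spheroids of each line, WNT8B in HCT116 at 1.15 and WNT11 in LOVO at 1.20, and 0 were below -1. The shares of all genes were 2.19% above and 3.33% below in HCT116, and 8.57% and 7.85% in LOVO. WLS, the carrier of WNT proteins to the cell surface, was at 12.7 and 21.0 FPKM in HCT116 and 11.3 and 6.86 in LOVO. PORCN, which attaches their lipid, was at 4.79 and 5.97 in HCT116 and 4.67 and 8.30 in LOVO. LGR4, the relative of LGR5 that is found more widely, was at 3.13 and 5.83 FPKM in HCT116 and at 29.7 and 13.7 in LOVO. Its difference in LOVO spheroids, -1.07, had the sign of that of ZNRF3, and in HCT116 both were higher in spheroids. R-spondin genes were low, with RSPO1 at 49 and 57 reads in HCT116 and 0 in LOVO, and RSPO3 at 5 and 119 reads in LOVO and 0 in HCT116.

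Of the 15 Frizzled, LRP and related receptor genes, 0 passed 1 in HCT116 spheroids. In LOVO spheroids 1 was above 1 and 2 below -1, against 8.57% and 7.85% of all genes, and none was past 2. FZD6 was the most abundant Frizzled gene by mean level and was at 15.5 and 13.3 FPKM in HCT116 and at 18.5 and 5.32 in LOVO. The co-receptor genes LRP5 and LRP6 differed by 0.31 and 0.36 in HCT116 spheroids and by -0.081 and -0.20 in LOVO spheroids.

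Of the 15 genes of extracellular inhibitors, several of them targets themselves, KREMEN2 was above 2 and DKK1 below -2 in LOVO spheroids. That is 1 gene in each direction, against 1.81% of all genes above 2 and 0.943% below -2. In HCT116 spheroids 0 were above 2 and 0 below -2, against 0.201% and 0.506%. NOTUM, an enzyme that removes the lipid of WNT proteins and is a known target, was at 5.80 FPKM in the adherent and 25.5 in the spheroid library of HCT116, and at 7.07 and 5.45 in LOVO. It was 4.39-fold higher in HCT116 spheroids (interval 3.90 to 4.95), a log2(FPKM + 1) difference of 1.96. DKK4, likewise a known target and named after its values were seen, had 4 reads in adherent HCT116 cells and 52 in the spheroids, 15.8-fold higher with an interval from 5.80 to 60.0. DKK1, which blocks LRP5 and LRP6, was lower in the spheroids of both lines, at 189.9 and 132.9 FPKM in HCT116 and at 30.2 and 5.97 in LOVO, with differences of -0.51 and -2.16. KREMEN2, a receptor of DKK1, was at 9.01 and 9.43 FPKM in HCT116 and at 1.07 and 10.4 in LOVO, a difference of 2.46. KREMEN1 was at 17.3 and 19.5 in HCT116 and at 1.90 and 1.79 in LOVO, and DKK3 at 0.136 and 0.0588 in HCT116 and at 3.25 and 12.0 in LOVO. In this list of 15 genes, 2 were above 1 and 0 below -1 in HCT116 spheroids, against 2.19% and 3.33% of all genes. In LOVO spheroids 2 were above 1 and 1 below -1, against 8.57% and 7.85%. Of the 15 genes, 5 had at most 3 reads in either HCT116 library and 9 in either LOVO library, and these could not pass.

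A further 18 genes reported as WNT targets in the intestine were read in the same way. Of those with more than 3 reads, 9 were lower and 4 higher in adherent LOVO cells, and 13 lower and 2 higher in LOVO spheroids, where 53.0% and 51.6% of all genes were higher. In LOVO against HCT116, 6 of the 18 were below -2 and 0 above 2 in adherent cells, and 6 and 0 in spheroids, against 5.59% and 4.71% of all genes below -2, with medians of -0.74 and -1.09. EPHB2, EPHB3, SOX9 and PROM1, the last also named after its values were seen, were among those below -2. All their LOVO values were under 1 FPKM, so they reached a mean of 1 FPKM through HCT116 alone and could only be lower in LOVO. The list was also chosen with earlier results of these data known, so no call is taken from these counts. Among the most abundant, CCND1, which codes for cyclin D1, was at 158 and 121 FPKM in HCT116 and at 33.7 and 27.3 in LOVO, and the growth factor gene BMP4 was at 69.4 and 119 in HCT116 and at 2.51 and 1.45 in LOVO. CD44, a receptor of hyaluronan, was at 45.8 and 54.0 in HCT116 and at 11.6 and 33.4 in LOVO. SOX9, EPHB2 and EPHB3, genes of crypt progenitors that were named after their values were seen, were at 39.8, 6.69 and 8.62 FPKM in adherent HCT116 cells and at 0.0567, 0.307 and 0.135 in adherent LOVO cells. In spheroids they were at 64.4, 7.23 and 7.55 in HCT116 and at 0.467, 0.957 and 0.592 in LOVO. Within LOVO the spheroids were higher, 8.24-fold for SOX9 (interval 2.96 to 31.8), 3.11-fold for EPHB2 (2.37 to 4.13) and 4.38-fold for EPHB3 (2.26 to 9.28). The SOX9 ratio rests on 4 and 37 reads. Of the listed targets with more than 3 reads, 5 were higher and 7 lower in LOVO spheroids than in adherent LOVO cells, where 45.5% of all genes were higher. SOX9 is also a factor of intestinal epithelium. Of the epithelium markers, EPCAM and CDX2 were low in both LOVO libraries, whereas KRT8 was at 189 and 81.6 FPKM there and KRT18 at 122 and 98.8. Any bearing of these markers on the targets was not tested. NKD2, the relative of NKD1, was at 14.7 and 12.5 FPKM in HCT116 and at 45.5 and 4.34 in LOVO. LOVO was thus 3.09-fold higher than HCT116 when adherent (interval 2.86 to 3.35) and 2.89-fold lower as spheroids (2.49 to 3.36), and within LOVO the spheroids were 10.5-fold lower (9.21 to 12.0). Of these targets with more than 3 reads, 10 were higher and 5 lower in HCT116 spheroids, where 45.8% of all genes were higher. CCND1, TERT, ETS2, NKD2 and EPHB3 were lower beyond counting error, by -0.39, -0.69, -0.32, -0.22 and -0.17. BMP4, BAMBI, SOX9, CD44, TNFRSF19 and EPHB2 were higher beyond counting error, by 0.77, 1.05, 0.68, 0.23, 0.23 and 0.098. SMOC2 had 0 reads in adherent HCT116 cells and 21 in the spheroids. TERT, ETS2, BAMBI, TNFRSF19 and SMOC2 were named after their values were seen. Within the lines, 1 of the 18 was above 1 in HCT116 spheroids and 0 below -1, against 2.19% and 3.33% of all genes. In LOVO spheroids 1 of the 18 was above 1 and 2 were below -1, against 8.57% and 7.85%.

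Genes of differentiated colon cells, which WNT signalling is known to hold back in the crypt, were mostly not detected. Of 14 such genes, at most 3 reads were counted for 10 in the libraries of HCT116 and for 11 in those of LOVO. KRT20, a keratin of the upper crypt, was at 0.930 FPKM when HCT116 was adherent and at 7.45 in the spheroids. That was 8.01-fold higher, with an interval from 5.59 to 11.8. In LOVO it had 1 and 2 reads. CA2, a carbonic anhydrase, was at 24.8 and 17.8 FPKM in HCT116 and at 0.630 and 0.515 in LOVO. CEACAM1, an adhesion molecule, was at 0.346 and 1.31 FPKM in HCT116 and 0.0808 and 1.23 in LOVO, and AQP8 had at most 3 reads in any library. ALPI, the alkaline phosphatase of the intestine, had 1 and 0 reads in HCT116 and stood at 1013 and 164 FPKM in LOVO. Its value is uncertain, since it has near-identical relatives whose reads the counting may have split or merged.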

How the data were processed

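RNA was profiled in 4 libraries, 1 per condition, and samples were grouped by their titles. The authors deposited 1 FPKM value per gene and library, with gene length and coordinates. The aligner and counting tool are not given in the sources used here, and the processing notes list GRCm38 and mm10, which are mouse builds, whereas all 58735 gene identifiers of the table were found in GENCODE 29 on GRCh38 and the coordinates of the 10 genes were the same there. The kit was SMARTER mRNA-Seq, and whether counting used strand is not given.

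FPKM multiplied by gene length gave whole multiples of a step in each library (100% of values above 0 within 0.01 of a whole read), so the reads behind each value were recovered, 15483569 to 20429147 per library. Fold changes were differences of log2(FPKM + 1), and genes with a mean of at least 1 FPKM over the 4 libraries (14429) formed the background. Ratios without a pseudocount have 95% exact (Clopper-Pearson) counting intervals. No ratio was formed where neither library had more than 3 reads of a gene, and a library with 0 reads was set to 3 reads to give a bound. Such a bound leaves out the counting error of the other library and is not a confidence limit. Limma 3.58.1 in R 4.3.3 (eBayes with trend, Benjamini-Hochberg over all genes) was fitted with cell line as a covariate. It was tested on simulated reads with genes changed between growth forms only, where it found the changed genes but also called unchanged genes. The effect of cell line was not simulated. Exon overlaps came from GENCODE 29, and promoter windows from RefSeq. Python 3.11.15 with numpy 2.4.6, pandas 2.3.3, scipy 1.17.1 and matplotlib 3.10.9 was used.

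The genes and lists were chosen with earlier results of these data known. Genes named outside the 10 were those past 2 within a line with more than 3 reads, up to 3 more per list by mean FPKM, and CTNNB1, APC and AXIN1, with others said to be named after their values were seen or where a count was small. No replicate was left out and no count test was run, because each condition had 1 library.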

Additional observations from a re-analysis of the deposited data

Results flagged for a closer look

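Among the 10 genes and the others that the naming rule gives, those below had spheroid differences of opposite sign in the lines, with counting intervals of the log2 ratio that excluded 0 in both. The difference between the lines was not tested, since each condition had 1 library. Each value is the difference of log2(FPKM + 1), positive where spheroids were higher, first in HCT116 and then in LOVO. Among the 10 genes these were ZNRF3, with 0.52 and -1.86, and RNF43, with 0.55 and -0.28. The RNF43 values are uncertain, since 73.9% of its exonic bases are shared with other annotated genes. Upstream in the pathway, LGR4 had 0.72 and -1.07, WLS had 0.68 and -0.64, WNT7B had 0.59 and -0.42, LRP6 had 0.36 and -0.20, and LRP5 had 0.31 and -0.081. Of the inhibitors and targets, NOTUM had 1.96 and -0.32 and BMP4 had 0.77 and -0.52. BCL9L was lower in HCT116 spheroids, at -0.63, and higher in LOVO spheroids, at 0.28. COL1A1, a collagen gene from the list of markers of other cells, had 1.34 and -0.62. Genes of the lists outside that rule were not screened, and some of them met the same condition, among them BAMBI with 1.05 and -1.39, WNT6 with 0.64 and -0.88, AMER1 with 0.36 and -0.70 and GSK3B with 0.31 and -0.56.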

How the results depend on the processing

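Of the differences of single genes among the 10, all kept their direction under pseudocounts of 0.1 and 0.01, TPM, TMM-style scaling and centring except MYC in LOVO, which was -0.0077 and became 0.20 with TPM, 0.13 with TMM-style scaling and 0.047 with centring. TPM moved the median of all genes from 0.039 to 0.26 between the spheroids of the lines and from -0.055 to 0.095 within LOVO. Counts past the threshold moved as follows. In LOVO spheroids 1 gene, ZNRF3, was below -2 with pseudocounts of 0.1 and 0.01, 1 was below -1, and 1 gene, ASCL2, was above 2 with 0.01. Between adherent cells of the lines the count below -2 was 4 with a pseudocount of 0.1, 6 with 0.01, 4 with TPM and 3 with centring, and 4 genes were below -1. Between spheroids it was 4 with 0.1, 4 with TPM and 5 with 0.01, where 1 was also above 2, and 6 genes were below -1. With only genes of a mean of at least 5 FPKM, MYC and ZNRF3 were left and both counts were 0, by the smaller number of genes counted. Counting only genes with a mean of at least 1 FPKM, an alternative chosen after seeing the data, moved no count, and the main counts use no filter. Limma called 0 of the 10 between spheroids and adherent cells under each alternative run, and the 4 called between the lines became 0 with a mean of at least 5 FPKM, which none of the 4 reach, and 0 without a filter, where 58735 genes were tested and 0 were called in all.

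Spheroids and adherent cells were paired by cell line in limma, and without that covariate 0 of 14429 genes were called as well, with 163 at an unadjusted p under 0.05. Leaving out a replicate was not run, since each condition had 1 library. Depth limits LGR5, ASCL2 and LEF1, with 9 reads at most in any library, and the LOVO values of AXIN2 and NKD1.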
